A study of Mus musculus with 8 samples.

Results

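C-type lectin receptors of bone-marrow-derived macrophages (BMDMs) were followed through efferocytosis, the uptake of apoptotic cells, and through an inflammatory stimulus. The receptors were picked as a family by name, with no threshold on their values, although earlier results of these data were known: Clec4a1, Clec4a2, Clec4a3, Clec4d, Clec4e, Clec4n, Clec5a, Clec7a, Clec12a and Mrc1, identified by the Ensembl identifiers that mouse GENCODE pairs with these symbols. They are 10 of the 55359 genes in the table of normalized counts, and all 10 passed the filter on low values. Total RNA was sequenced from 4 groups of 2 samples each. The BMDMs were grown from the femoral marrow of adult C57BL/6 mice, males and females, and differentiated with M-CSF and GM-CSF in all groups, over 7 days by the labels, with co-culture starting after 6 days. Ctrl samples were naïve macrophages that met neither fibroblasts nor a stimulus. LPS samples were naïve macrophages stimulated for 6 h with LPS (100 ng/mL) and IFNγ (100 U/mL). Eff samples were efferocytic macrophages, co-cultured for 16 h with apoptotic NIH-3T3 CA fibroblasts at 5 fibroblasts per macrophage and then washed. LPSEff samples had the same co-culture followed by the same stimulus. The fibroblasts were 1 clone (D10) that carries a dimerizable human caspase-8 domain and had been driven into apoptosis with 10 nM dimerizer. The dimerizer stayed present at 10 nM during the co-culture, and the labels list none for the naïve macrophages. Naïve macrophages had no co-culture of any kind. The effects of taking up cells, of being cultured beside them and of the dimerizer therefore cannot be told apart. CD45-positive cells were isolated with magnetic beads before RNA was made.

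C-type lectin receptors carry a lectin-like domain that binds sugars, lipids or proteins of microbes and of damaged host cells. Activating receptors couple to Syk kinase, either through a tyrosine motif in their own tail or through the adaptor chains Fcer1g and Tyrobp, and Syk then signals through Card9, Bcl10 and Malt1 to NF-κB. Inhibitory receptors carry a motif that recruits phosphatases such as Ptpn6 and Ptpn11. In macrophages the family is known for sensing of fungi and mycobacteria and for sensing of dead cells.

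Depth ranged from 3481288 reads in Ctrl replicate 1 to 12020918 reads in Ctrl replicate 2, and 3 reads corresponded to between 1.73 and 5.71 normalized counts. The macrophage markers summed to between 109159.5 and 164247 normalized counts in the 8 samples, and 0 of the 11 markers passed the test between efferocytic and naïve samples. Of all genes tested, 0.251% passed without stimulus, 0.773% under LPS/IFNγ and 1.92% over both states, so 0 of 11 lies near the share of all genes. Lymphocyte and NK cell markers summed to at most 38.8 normalized counts. Fibroblast markers, in contrast, summed to between 202 and 1032 normalized counts in the naïve samples and to between 2305 and 6850 in the efferocytic samples, with Col1a2 at 7.62 to 83.3 and 582 to 1913. In bulk RNA, fewer cells of a type and less RNA per cell cannot be told apart. Replicate 2 differed from replicate 1 at 23.5% of all genes tested (limma, adjusted p under 0.05), and the replicates' values are therefore given separately below.

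Of the 10 receptor genes, 9 lie on chromosome 6 (GRCm39), of which 6 are crowded into 371 kb. In order along the chromosome these are Clec4a1 (chr6:122896122-122911578), Clec4a3 (chr6:122929380-122948807), Clec4a2 (chr6:123083387-123120958), Clec4n (chr6:123206802-123223980), Clec4d (chr6:123239070-123252230) and Clec4e (chr6:123258748-123266829). Clec4d on the forward strand and Clec4e on the reverse strand point at each other across 6.52 kb. Clec12a (chr6:129319654-129342266) and Clec7a (chr6:129438554-129449742) form a pair farther along, Clec5a (chr6:40551234-40562773) lies apart, and Mrc1 is on chromosome 2 (chr2:14234151-14336926). The promoters of Clec4e, Clec4d and Clec12a are shown because these 3 genes carry the clearest responses described below. Each line gives the 250 bases before the RefSeq start site, 5′ to 3′ on the gene's strand, from the GRCm38.p6 promoter table of RefSeq, placed by an exact and single match in GRCm39. Capitals mark TTNNGNAA, a short form of the motif of C/EBP factors, searched on both strands with overlapping matches allowed.
Clec4e: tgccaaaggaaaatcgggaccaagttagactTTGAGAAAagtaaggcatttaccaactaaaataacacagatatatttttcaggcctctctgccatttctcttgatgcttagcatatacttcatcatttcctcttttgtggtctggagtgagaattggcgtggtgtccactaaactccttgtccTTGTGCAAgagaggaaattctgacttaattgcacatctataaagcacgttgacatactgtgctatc
Clec4d: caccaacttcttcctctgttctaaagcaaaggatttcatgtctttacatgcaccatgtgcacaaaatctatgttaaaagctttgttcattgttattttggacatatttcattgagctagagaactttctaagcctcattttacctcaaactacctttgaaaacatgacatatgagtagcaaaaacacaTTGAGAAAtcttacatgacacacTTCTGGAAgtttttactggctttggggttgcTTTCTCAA
Clec12a: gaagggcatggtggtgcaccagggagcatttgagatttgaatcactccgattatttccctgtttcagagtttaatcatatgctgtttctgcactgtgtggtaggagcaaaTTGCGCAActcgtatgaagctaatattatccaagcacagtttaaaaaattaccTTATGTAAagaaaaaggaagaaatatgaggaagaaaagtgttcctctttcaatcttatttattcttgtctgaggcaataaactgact
The Clec4e window is chr6:123266831-123267080 (reverse strand), the Clec4d window chr6:123238816-123239065 (forward strand) and the Clec12a window chr6:129326957-129327206 (forward strand), which lies 7553 bases inside the longer gene span that GENCODE gives for Clec12a. The Clec4e window held 2 matches, the Clec4d window 3 and the Clec12a window 2. A match was found in 36.8% of the 32851 promoters of this length in the table, and in 6 of the 11 receptor promoters, which belong to the 9 receptor genes that had an entry. An NF-κB form (GGG and CC with 5 bases between) was in 45.8% of all promoters and in those of Clec4a1 and Mrc1. An interferon response form (a pair of GAAA with 2 bases between) was in 2.98% of all promoters and in none of the receptor promoters. The AP-1 form TGANTCA was in 6.75% of all promoters and in that of Clec12a alone among the receptors, the GAS form TTCNNNGAA in 7.02% and in that of Clec4a2 alone, and the PU.1 form GGAAGT in 19.7% and in those of Clec4a2, Clec4d and Mrc1. These matches describe the letters in the windows only.

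Shared sequence touches few of the counts. Clec4a1, Clec4a2 and Clec4a3 are close relatives, with coding sequences 71.2% to 76.7% identical over the aligned bases. No window of 50 bases, the number of sequencing cycles, was shared between any 2 of the 10 receptors' transcripts. Windows shared with transcripts of other genes made up 6.38% of those of Clec4a2, 2.22% of those of Clec4a1, 0.667% of those of Clec4n and 0.365% of those of Clec12a, and none of those of the other receptors. The sharing genes included Clec4a4 and Clec4b1 for Clec4a2. Exons of Clec5a overlapped 44 bases of the olfactory receptor gene Or9a4 on the opposite strand, which averaged 1.18 normalized counts, and those of Clec4a2 overlapped 16 bases of the antisense RNA Gm67020. Mir511 lies within an intron of Mrc1.

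In naïve unstimulated macrophages the transcript pool of the family was led by Clec4n, also called Dectin-2, a receptor for fungal mannans that signals through Fcer1g. Levels were compared per kilobase of annotated exons. Clec4n made up 52.4% ± 4.42 of the summed level of the 10 receptors in Ctrl (SD, n = 2), before Clec4d at 17.2% ± 0.919, Clec7a at 11.0% ± 3.14 and Mrc1 at 9.99% ± 0.823, of which Clec7a and Mrc1 differed by less than their spread. Clec4e contributed 2.44% ± 0.816, and Clec4a1, Clec4a2 and Clec4a3 together stayed at the bottom, with 0.0390%, 0.993% and 0.168%. In LPS samples Clec4e held 37.4% ± 7.37, ahead of Clec4n at 28.5% ± 10.1 and Clec4d at 20.8% ± 6.00, and neighbours in this order differed by less than the larger of their SDs. In Eff samples the order of Ctrl was kept at the top, with 56.5% ± 3.22 for Clec4n and 23.9% ± 3.58 for Clec4d. In LPSEff samples Clec4n held 39.5% ± 6.81 and Clec4e 27.2% ± 5.96. With the length of the canonical transcript in place of all exons, Clec4n stayed first in Ctrl and Eff and Clec4e first in LPS, but Clec7a moved from the third to the second place in Ctrl and Eff (27.0% ± 6.12 in Ctrl), and Clec4e passed Clec4n in LPSEff with 34.4% ± 6.95 against 29.1% ± 5.50. The summed level per kilobase was 6570 ± 364 in Ctrl, 10015 ± 802 in LPS, 9542 ± 2105 in Eff and 17317 ± 3386 in LPSEff.

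**Figure D1:**
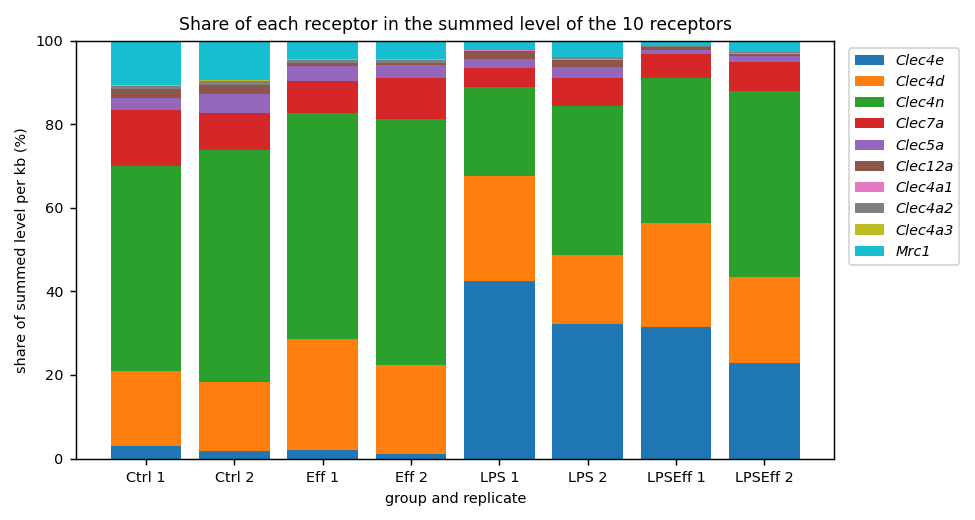
Share of each receptor in the summed level per kilobase of exons of the 10 receptors (vertical axis, percent), in each of the 8 samples (horizontal axis, group and replicate). Clec4n is the widest band in the Ctrl and Eff samples, from 49.3% to 58.8%, and Clec4e widens to between 23.0% and 42.6% in the stimulated samples.

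The first comparison asked which receptors answered 6 h of LPS/IFNγ in naïve and in efferocytic macrophages. Clec4e rose by far the most in both, Clec4a1 and Clec4d rose in both, Clec4a2 fell in naïve macrophages and Clec12a rose in efferocytic macrophages. That is 4 of 10 receptors in LPS vs Ctrl, 3 higher and 1 lower, beside 24% of all 16309 genes tested. In LPSEff vs Eff it is 4 of 10, all higher, beside 19.7%. Clec4a1, counted in both comparisons, passed the filter on low values only through the stimulated groups, so its calls are tied to that filter. A receptor was called where limma's Benjamini-Hochberg adjusted p over all genes was under 0.05. The median log2 fold change of the 10 receptors was -0.16 in LPS vs Ctrl and 0.37 in LPSEff vs Eff, and that of all genes tested was -0.01 and 0.01. With the replicate number as a block, 6 receptors were called in LPS vs Ctrl (41.2% of all genes) and 7 in LPSEff vs Eff (37% of all genes).

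**Figure D2:**
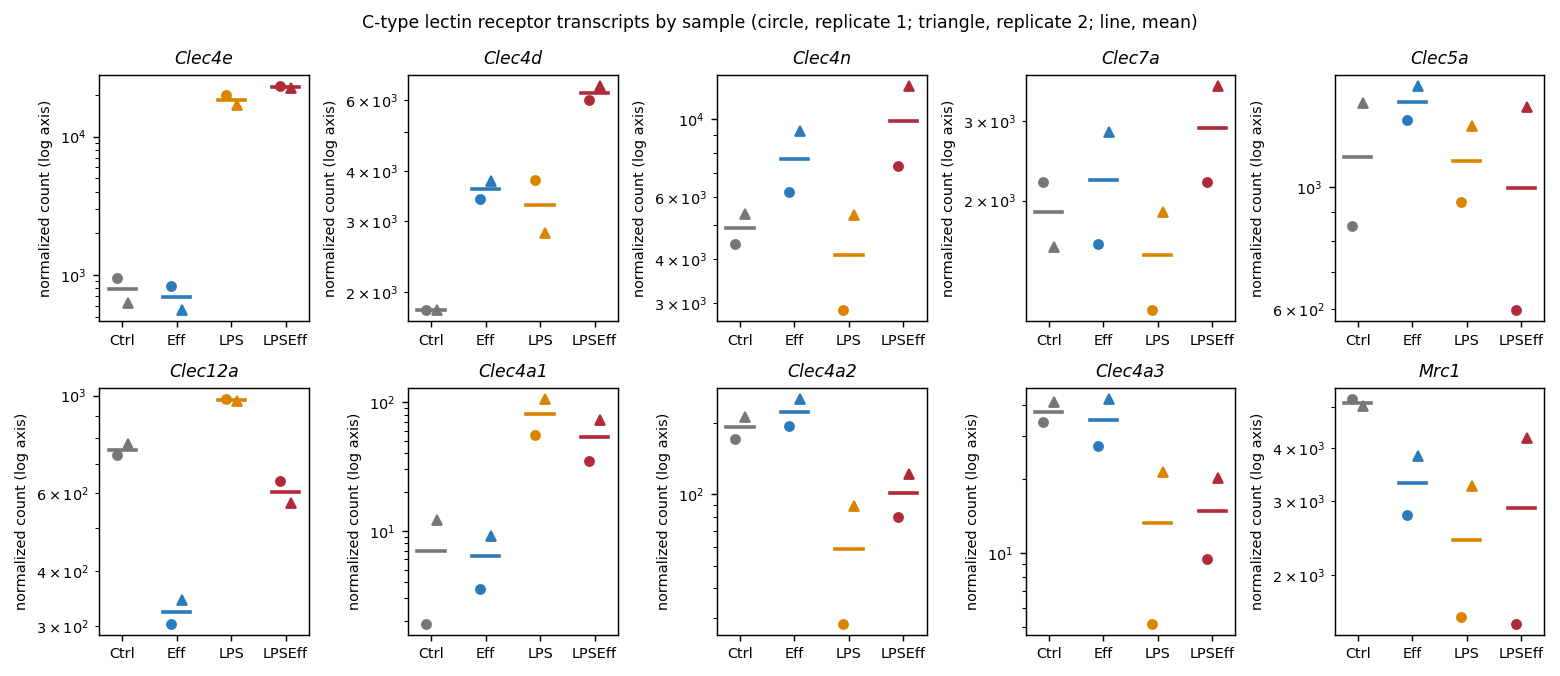
Normalized counts of the 10 receptors (vertical axes, log scale, each with its own range) by group (horizontal axes), with a circle for replicate 1, a triangle for replicate 2 and a line for the mean of both. Clec4e separates stimulated from unstimulated samples, while Clec12a and Clec4d also separate efferocytic from naïve samples within each stimulus state.

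Clec4e, also called Mincle, senses mycobacterial cord factor and the nuclear protein Sf3b3 released by dead cells, and signals through Fcer1g. The unstimulated samples had 944 and 630.4 normalized counts (Ctrl) and 827 and 555 (Eff), and the stimulated samples had 19985 and 16906 (LPS) and 23263 and 22486 (LPSEff). The 4 stimulated samples lay far above the 4 unstimulated samples, with no overlap. The log2 fold change was 4.57 ± 0.27 (SE) in naïve macrophages (adjusted p = 3.69e-05) and 5.07 ± 0.27 in efferocytic macrophages (adjusted p = 2.04e-05), or 23.8-fold and 33.7-fold. Both calls held when any 1 sample was left out. Its promoter window is the one printed above with matches starting 219 and 66 bases before the start site.

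Clec4d, also called MCL, is the neighbour of Clec4e and pairs with it on the cell surface, also coupled to Fcer1g. It counted 1807 and 1812 normalized counts in Ctrl and 3419 and 3787 in Eff, against 3792 and 2806 in LPS and 6007 and 6511 in LPSEff. Each group stood apart from its comparison groups: all stimulated values exceeded the unstimulated values of the same co-culture state. The log2 fold change under LPS/IFNγ was 0.85 ± 0.20 in naïve macrophages (adjusted p = 0.0174) and 0.80 ± 0.20 in efferocytic macrophages (adjusted p = 0.0253). The naïve call was lost without Ctrl replicate 1, Ctrl replicate 2 or LPS replicate 1 (0.63 to 0.85, adjusted p from 0.0815 to 0.0854). The efferocytic call was lost without any 1 of the 4 samples compared (0.72 to 0.87, adjusted p from 0.0864 to 0.148). Both calls also depended on the scaling. The stimulated samples had larger totals of normalized counts (8470249 to 9489294) than the unstimulated samples (6587737 to 6951788), and scaling all samples to equal totals left the median gene at -0.40 and -0.44 in LPS vs Ctrl and LPSEff vs Eff, and Clec4d was at 0.45 (adjusted p = 0.137) and 0.35 (adjusted p = 0.244). With quantile normalization, which left the median gene at -0.09 and -0.10, it was at 0.24 (adjusted p = 0.479) and 0.02 (adjusted p = 0.958).

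Clec4n counted 4418 and 5383 normalized counts in Ctrl and 6206 and 9213 in Eff, against 2861 and 5349 in LPS and 7352 and 12407 in LPSEff. The values of LPS overlapped those of Ctrl, and the values of LPSEff overlapped those of Eff. Clec4n did not pass the test of LPS/IFNγ in naïve (-0.32 ± 0.37, adjusted p = 0.598) or efferocytic macrophages (0.34 ± 0.37, adjusted p = 0.595). In naïve macrophages it passed with quantile normalization (-1.08, adjusted p = 0.0379) and not with equal totals (-0.72, adjusted p = 0.124). In efferocytic macrophages its direction turned with equal totals (-0.11, adjusted p = 0.822) and with quantile normalization (-0.58, adjusted p = 0.231).

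Clec5a, also called MDL-1, signals through Tyrobp and is known for its part in responses to flaviviruses. It counted 849 and 1419.7 normalized counts in Ctrl and 1325 and 1528 in Eff, against 940.3 and 1289 in LPS and 598 and 1396 in LPSEff. The stimulated values overlapped the unstimulated values in both states, and replicate 2 was higher in every group. Neither comparison passed the test (adjusted p = 0.997 and 0.328), and with the replicate number as a block LPSEff vs Eff was at -0.64 (adjusted p = 0.0320).

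Clec7a, also called Dectin-1, is the receptor for fungal β-glucan and carries its own Syk-coupling motif. It counted 2201 and 1579.9 normalized counts in Ctrl and 1601 and 2848 in Eff, against 1141 and 1886 in LPS and 2202 and 3600.5 in LPSEff. The LPS values overlapped those of Ctrl, the LPSEff values overlapped those of Eff, and neither comparison passed the test (adjusted p = 0.569 and 0.527).

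Clec12a, an inhibitory receptor that binds uric acid crystals from dying cells, counted 731 and 777 normalized counts in Ctrl and 304 and 343 in Eff, against 982 and 974 in LPS and 641 and 570 in LPSEff. The values of the 4 groups did not overlap, with the order Eff, LPSEff, Ctrl and LPS from low to high. Under LPS/IFNγ it rose in efferocytic macrophages (log2 fold change 0.90 ± 0.17, adjusted p = 0.00792) and was at 0.38 ± 0.17 in naïve macrophages (adjusted p = 0.156). The efferocytic call was lost with equal totals (0.45, adjusted p = 0.0659), without Eff replicate 1 (0.82, adjusted p = 0.0709) and without LPSEff replicate 1 (0.82, adjusted p = 0.0625).

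The Dcir genes had low levels per kilobase of exons, at the last 3 places of the family in Ctrl, LPS and LPSEff, while in Eff Clec4a2 stood before Clec12a (0.801% against 0.584% of the summed level). Clec4a2 (Dcir1), which carries an inhibitory motif, counted 171 and 212 normalized counts in Ctrl and 194 and 252 in Eff, against 28.5 and 89.4 in LPS and 80.0 and 122 in LPSEff. Stimulated values lay below unstimulated values without overlap in both states. It fell by 1.89 ± 0.49 on the log2 scale in naïve macrophages (adjusted p = 0.0249). In efferocytic macrophages it was at -1.15 ± 0.49 (adjusted p = 0.141), which passed with the replicate number as a block (adjusted p = 0.00994). The efferocytic value also passed with equal totals (-1.60, adjusted p = 0.0251) and not with quantile normalization (-1.15, adjusted p = 0.132). The naïve call was lost without Ctrl replicate 1 (-2.04, adjusted p = 0.0828), Ctrl replicate 2 (-1.74, adjusted p = 0.124) or LPS replicate 1 (-1.08, adjusted p = 0.0735).

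Clec4a3 (Dcir3) counted 34.3 and 41.1 normalized counts in Ctrl and 27.2 and 42.3 in Eff, against 5.17 and 21.3 in LPS and 9.50 and 20.3 in LPSEff. Stimulated samples were again lower without overlap. The value of LPS replicate 1 rests on 4 reads, near the level of 3 reads (3.88 normalized counts). Clec4a3 did not pass the test in naïve (-1.71 ± 0.65, adjusted p = 0.0967) or efferocytic macrophages (-1.22 ± 0.65, adjusted p = 0.241). It passed in both with the replicate number as a block (adjusted p = 0.00888 and 0.0473). With 1 sample left out, the naïve value ran from -2.64 to -0.79.

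Clec4a1 (Dcir4) went the other way, with 1.90 and 12.1 normalized counts in Ctrl and 3.51 and 9.17 in Eff, against 55.6 and 106 in LPS and 34.8 and 72.3 in LPSEff. The value of Ctrl replicate 1 rests on 1 read and lies under the level of 3 reads. Clec4a1 averaged 7.02 in Ctrl and 6.34 in Eff against 80.6 in LPS and 53.6 in LPSEff, and so passed the filter on low values only through the stimulated groups. The stimulated samples lay above the unstimulated samples without overlap, with log2 fold changes of 3.65 ± 0.79 in naïve (adjusted p = 0.0122) and 2.92 ± 0.79 in efferocytic macrophages (adjusted p = 0.0346). The naïve call was lost without Ctrl replicate 1 (2.56, adjusted p = 0.0629) and without LPS replicate 2 (3.20, adjusted p = 0.0654), and the efferocytic call without any 1 of the 4 samples compared (2.33 to 3.51, adjusted p from 0.0565 to 0.171).

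Mrc1, the mannose receptor, takes up mannose-bearing glycoproteins and is widely used as a mark of alternative activation. It counted 5223 and 5027 normalized counts in Ctrl and 2778 and 3829 in Eff, against 1591 and 3257 in LPS and 1536 and 4219 in LPSEff. The LPS values lay below the Ctrl values, whereas the LPSEff values overlapped those of Eff on both sides. LPS vs Ctrl was at -1.17 ± 0.48 (adjusted p = 0.122) and passed with the replicate number as a block (adjusted p = 0.00653), with DESeq2 (adjusted p = 0.0447) and with equal totals (adjusted p = 0.0268). LPSEff vs Eff did not pass in either fit (adjusted p = 0.675, and 0.352 with the block).

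**Figure D3:**
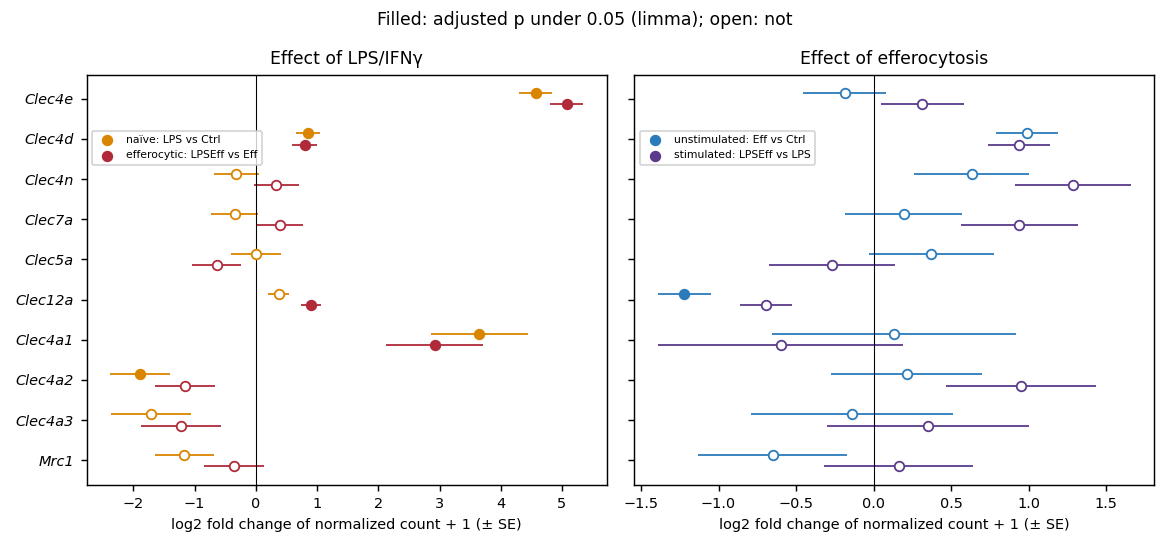
Log2 fold changes of normalized count + 1 (horizontal axes, with SE as bars) of the 10 receptors, for LPS/IFNγ on the left and for efferocytosis on the right; filled points had an adjusted p under 0.05 in limma. Clec4e stands at 4.57 and 5.07 on the left, and on the right Clec4d lies near 1 in both states while Clec12a lies below 0 in both.

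The next comparison asked how the receptors differed after co-culture with apoptotic fibroblasts, first without and then with the later stimulus. Over both states together Clec4d rose to 1.95 times and Clec12a fell to 0.515 of the naïve level. These 2 of 10 receptors stand beside 1.92% of all genes tested in the mean efferocytosis effect, which averages Eff vs Ctrl and LPSEff vs LPS. In the single comparisons, 1 of 10 receptors was called in Eff vs Ctrl (0.251% of all genes) and 0 of 10 in LPSEff vs LPS (0.773% of all genes). In LPSEff vs LPS, 4 receptors had an unadjusted limma p under 0.05 (Clec4d, Clec4n, Clec7a and Clec12a), beside 1679 of the 16309 genes tested. DESeq2 called 2 receptors and edgeR 0 in this comparison, beside 368 and 126 of all genes. The median log2 fold change of the 10 receptors was 0.16 in Eff vs Ctrl, 0.33 in LPSEff vs LPS and 0.08 in the mean effect, beside -0.01, 0.00 and -0.01 for all genes. With the replicate number as a block, the calls were 2 in Eff vs Ctrl (2.67% of all genes), 3 in LPSEff vs LPS (6.97%) and 3 in the mean effect (11.3%).

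Clec12a was the receptor that fell. Its values given above were lower in both Eff samples than in any Ctrl sample and lower in both LPSEff samples than in any LPS sample. The mean effect was -0.96 ± 0.12 (adjusted p = 0.00853), the change in unstimulated macrophages -1.22 ± 0.17 (adjusted p = 0.0402) and that under LPS/IFNγ -0.69 ± 0.17 (adjusted p = 0.158, and 0.0168 with the block). The mean effect passed in all 11 other processing settings and in 7 of 8 fits that left out a sample, missing without LPSEff replicate 2 (-0.91, adjusted p = 0.0522). The unstimulated call was lost without any 1 of the 8 samples, with values from -1.31 to -1.13 and adjusted p from 0.0524 to 0.267. Of the 7 dendritic cell markers tested, 1 fell in the mean effect, in which 1.92% of all genes were called in either direction. With the replicate number as a block 6 of the 7 fell, beside 11.3% of all genes called in either direction. All 7 fitted values were below 0, from -1.47 to -0.34. The one that fell in both fits was Batf3, a transcription factor of dendritic cells, which moved the same way, from 119 to 219 normalized counts in the naïve samples to 49.4 to 73.6 in the efferocytic samples, and the dendritic cell markers summed to 779 to 3820 and to 463 to 1685. Their part in the result was not tested.

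Clec4d was the receptor that rose. The 4 efferocytic values exceeded the naïve values of the same stimulus, with a mean effect of 0.97 ± 0.14 (adjusted p = 0.0148). The 2 states gave 0.99 ± 0.20 without stimulus (adjusted p = 0.154, and 0.0102 with the block) and 0.94 ± 0.20 under LPS/IFNγ (adjusted p = 0.108, and 0.00821 with the block). The mean effect passed in all 11 other processing settings, but missed without Ctrl replicate 1, Ctrl replicate 2, Eff replicate 2, LPSEff replicate 1 or LPSEff replicate 2, with values from 0.93 to 0.99 and adjusted p from 0.0589 to 0.0792. The listed neutrophil markers summed to 728 to 2218 normalized counts in the naïve samples and 1144 to 2649 in the efferocytic samples. Of the 6 neutrophil markers tested, 1 rose in the mean effect, beside 1.92% of all genes called in either direction. This was S100a8, a calcium-binding protein abundant in myeloid cells, which went from 269.5 to 573 normalized counts in the naïve samples to 665 to 995 in the efferocytic samples. Among the other neutrophil markers, S100a9 was at 306 to 954 normalized counts over the 8 samples, Ngp at 79.8 to 472 and Ltf at 28.9 to 152, and Ly6g, Cxcr2 and Retnlg were at most 19.4, 5.26 and 0.876. In the mean effect Mpo was at -0.62 ± 0.45, S100a9 at -0.15 ± 0.27, Ltf at 0.01 ± 0.56, Ngp at 0.08 ± 0.35 and Camp at 0.23 ± 0.46. The fibroblast markers also moved with efferocytosis, as given above. The part of S100a8 and of the fibroblast markers in the change of Clec4d was not tested.

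Clec4n was higher in both Eff samples than in both Ctrl samples and higher in both LPSEff samples than in both LPS samples. It did not pass the test in the mean effect (0.96 ± 0.26, adjusted p = 0.149) and passed with the replicate number as a block (adjusted p = 6.69e-04) and with DESeq2 (adjusted p = 0.00296). Under LPS/IFNγ the difference was 1.29 ± 0.37 (adjusted p = 0.234, and 0.00177 with the block), and without stimulus 0.63 ± 0.37 (adjusted p = 0.988).

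The remaining 7 receptors did not pass in any of the 3 efferocytosis comparisons with limma, with or without the block. Clec4e, despite its response to the stimulus, had overlapping values in Eff and Ctrl (adjusted p = 0.999), and its LPSEff values lay above its LPS values without overlap, by 0.32 ± 0.27 (adjusted p = 0.790). Mrc1 was lower in both Eff samples than in both Ctrl samples, by -0.65 ± 0.48 (adjusted p = 0.999). Clec7a was higher in both LPSEff samples than in both LPS samples, by 0.94 ± 0.38 (adjusted p = 0.440).

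**Figure D4:**
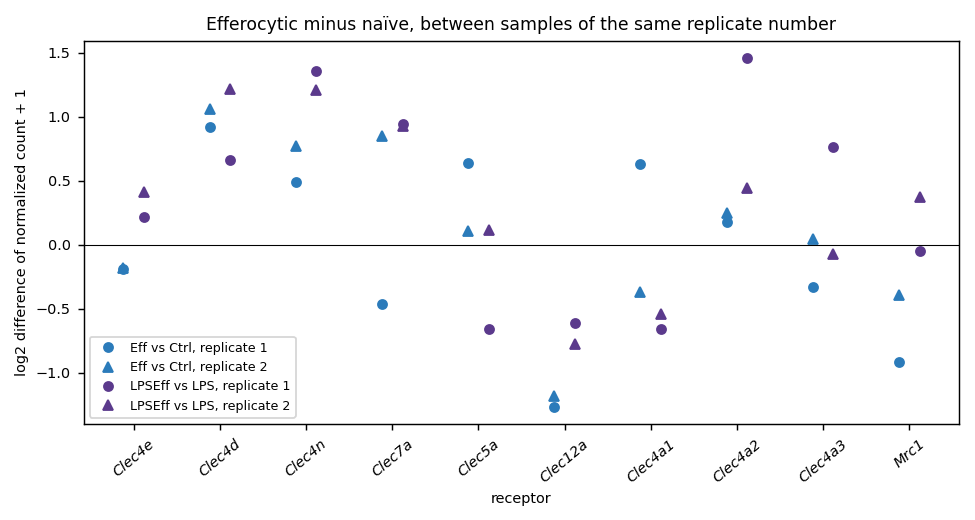
Log2 difference of normalized count + 1 between efferocytic and naïve samples that carry the same replicate number (vertical axis), for the 10 receptors (horizontal axis), without stimulus in blue and under LPS/IFNγ in purple. All 4 points lie above 0 for Clec4d, Clec4n and Clec4a2 and below 0 for Clec12a.

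Whether efferocytosis changed the response to LPS/IFNγ was asked with the interaction term, the difference between the effect in efferocytic and that in naïve macrophages. No receptor was called, beside 0% of all genes tested without and 0% with the block, although 311 genes (limma) and 1052 genes (limma with the block) had an unadjusted p under 0.05. None of the receptors was among the 311 genes. Clec4n and Clec12a were among the 1052 (unadjusted p = 0.0197 and 0.0233, limma with the block). After adjustment edgeR and DESeq2, each with and without the block, also called 0 of 10. Over all genes edgeR called 0 and DESeq2 0, or 29 with the block. Without the block, the smallest unadjusted p among the receptors was that of Clec12a (interaction 0.53 ± 0.24 on the log2 scale, adjusted p = 1.00). For Mrc1 the interaction was 0.81 ± 0.68, for Clec7a 0.75 ± 0.54 and for Clec4n 0.65 ± 0.53. The naïve and efferocytic responses are not shown to differ at this number of samples.

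The 2 replicate numbers differed for 7 of the 10 receptors, beside 23.5% of all genes tested. Averaged over the 4 groups, replicate 2 exceeded replicate 1 by 1.32 ± 0.30 on the log2 scale for Clec4a1, by 0.94 ± 0.31 for Clec4a3, by 0.72 ± 0.21 for Clec4a2, by 0.72 ± 0.20 for Mrc1, by 0.66 ± 0.15 for Clec5a and by 0.63 ± 0.12 for Clec4n, and Clec4e was lower by -0.36 ± 0.12. These 7 receptors had an adjusted p between 0.00553 and 0.0490. Clec4d (adjusted p = 0.818), Clec12a (adjusted p = 0.906) and Clec7a (adjusted p = 0.106) did not. Among other genes, picked after their values were seen, the dendritic cell marker Kmo was at 67.3 to 97.1 normalized counts in the replicate 1 samples and at 206 to 524.5 in the replicate 2 samples, and Arg1 was at 1711 to 4999.6 and at 116 to 759. What the number stands for is not given in the labels.

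Of 23 chains and signalling genes that serve these receptors, 9 rose and 3 fell in LPS vs Ctrl, beside 24% of all genes tested. In LPSEff vs Eff 7 rose and 5 fell, beside 19.7%. The median log2 fold change was 0.21 and 0.07. With the replicate number as a block 10 rose and 4 fell in LPS vs Ctrl (41.2% of all genes), and 10 rose and 7 fell in LPSEff vs Eff (37%). Syk, the kinase at which the activating receptors converge, rose from 2782 and 2538 normalized counts in Ctrl to 7565 and 5879 in LPS, by 1.33 ± 0.19 (adjusted p = 0.00198), and by 1.24 ± 0.19 in efferocytic macrophages (adjusted p = 0.00328). Malt1 rose by 1.83 ± 0.18 and 2.11 ± 0.18, and Bcl10 by 1.10 ± 0.17 and 1.16 ± 0.17. Card9, the adaptor between them and Syk, fell from 558 and 886 normalized counts in Ctrl to 194 and 250 in LPS, by 1.67 ± 0.35 (adjusted p = 0.0105), and fell by 1.81 ± 0.35 in efferocytic macrophages (adjusted p = 0.00860). Src rose by 2.57 ± 0.23 in naïve macrophages, and the transcription factor Nfatc2 fell by 1.70 ± 0.46. Fcer1g, the chain used by Clec4e, Clec4d and Clec4n, rose in naïve macrophages by 0.72 ± 0.21 (adjusted p = 0.0401) and was at 0.59 ± 0.21 in efferocytic macrophages (adjusted p = 0.0878, and 0.00964 with the block). With equal totals Fcer1g was at 0.32 (adjusted p = 0.337) in naïve macrophages, and with quantile normalization its efferocytic value was -0.06 (adjusted p = 0.894). Syk passed with equal totals and not with quantile normalization (0.57, adjusted p = 0.0754, and 0.49, adjusted p = 0.126). Tyrobp, the chain used by Clec5a, was at -0.40 ± 0.21 and -0.43 ± 0.21 (adjusted p = 0.213 and 0.205), and it passed with the block (adjusted p = 0.0353 and 0.0303), with equal totals (-0.81, adjusted p = 0.00968, and -0.88, adjusted p = 0.00727) and with quantile normalization (-1.13, adjusted p = 0.00287, and -1.11, adjusted p = 0.00362). In the mean efferocytosis effect 0 of the 23 genes passed, beside 1.92% of all genes. With the replicate number as a block 3 passed, all lower, beside 11.3% of all genes.

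**Figure D5:**
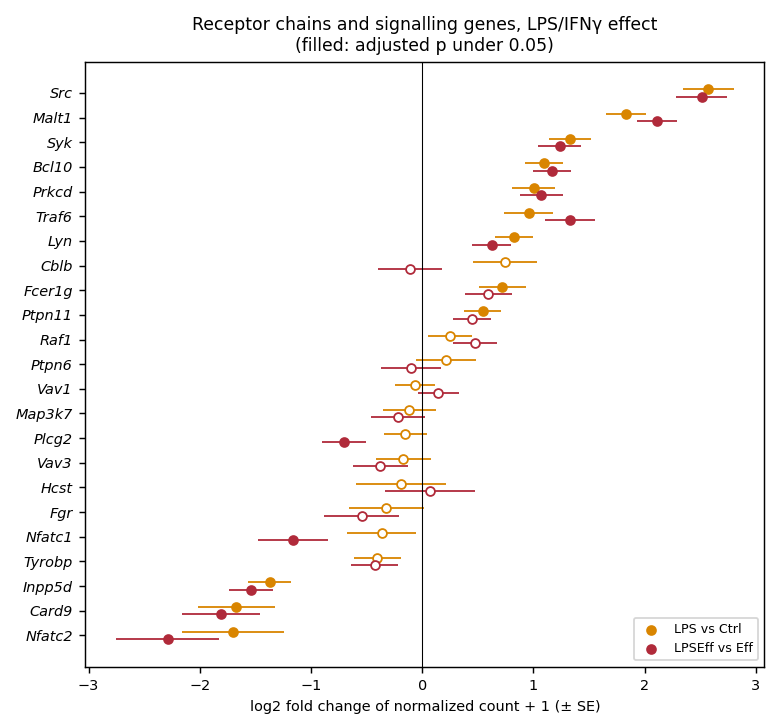
Log2 fold changes of normalized count + 1 (horizontal axis, with SE as bars) of the 23 chains and signalling genes (vertical axis) under LPS/IFNγ in naïve and efferocytic macrophages; filled points had an adjusted p under 0.05 in limma. Src, Malt1, Syk and Bcl10 lie above 0 and Nfatc2, Card9 and Inpp5d below 0 in both states.

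Of 46 other genes of the C-type lectin family, 19 passed the filter on low values. Of these 6 rose and 3 fell in LPS vs Ctrl, beside 24% of all genes tested, and 5 and 2 in LPSEff vs Eff, beside 19.7%. With the replicate number as a block 6 rose and 8 fell in LPS vs Ctrl (41.2% of all genes), and 7 rose and 4 fell in LPSEff vs Eff (37%). Olr1, a scavenger receptor for oxidized LDL, rose by 4.72 ± 0.36 and 4.81 ± 0.36. Cd69, an early activation antigen, rose by 4.30 ± 0.58 in naïve macrophages, and Ly75, an endocytic receptor related to Mrc1, rose by 2.60 ± 0.44. Thbd, thrombomodulin, fell in naïve macrophages from 166 and 132 normalized counts to 20.7 and 9.14, and was at 239 and 252 in Eff and 207 and 118 in LPSEff. It rose with efferocytosis under LPS/IFNγ (3.41 ± 0.41, adjusted p = 0.0174) and in the mean effect (2.07 ± 0.29, adjusted p = 0.0132). Mrc2, a collagen receptor related to Mrc1, rose in the mean effect too (2.65 ± 0.38, adjusted p = 0.0142), from 8.12 to 25.9 normalized counts in the naïve samples to 74.5 to 129 in the efferocytic samples, in which the fibroblast markers were higher too.

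Among 4 endogenous ligands, 3 passed the filter. Anxa5, an annexin that binds the surface of apoptotic cells, rose in LPS vs Ctrl (0.60 ± 0.17, adjusted p = 0.0333) and in LPSEff vs Eff (0.66 ± 0.17, adjusted p = 0.0253). Both of its calls were lost with equal totals (0.20, adjusted p = 0.396, and 0.21, adjusted p = 0.360), and with quantile normalization its direction in LPS vs Ctrl turned (-0.03, adjusted p = 0.923). Sf3b3, a splicing factor and ligand of Clec4e, fell in LPS vs Ctrl by 0.58 ± 0.17 (adjusted p = 0.0425) and was at -0.46 ± 0.17 in LPSEff vs Eff (adjusted p = 0.101, and 0.0252 with the block). In LPSEff vs Eff Sf3b3 also passed with equal totals (-0.91, adjusted p = 0.00403) and with quantile normalization (-0.74, adjusted p = 0.0115). None passed in an efferocytosis comparison, with or without the block.

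The response of the family was set beside genes of classical and alternative activation. Of 16 classical genes, 14 rose and 0 fell in each LPS/IFNγ comparison, beside 24% and 19.7% of all genes tested. With the replicate number as a block 15 rose and 0 fell in each (41.2% and 37% of all genes). The median log2 fold change was 6.90 and 7.29. Nos2, the inducible nitric oxide synthase, rose by 9.60 ± 0.27 and 10.73 ± 0.27. Of the 13 alternative activation genes that passed the filter, 4 rose and 3 fell in each comparison. With the block 6 rose and 6 fell in LPS vs Ctrl, and 7 rose and 3 fell in LPSEff vs Eff. Pparg was at -2.86 ± 0.46 and Ccl22 at 3.79 ± 0.33 in naïve macrophages. In the mean efferocytosis effect, Fn1 rose by 2.05 ± 0.19 (adjusted p = 0.00309) and Ccl22 fell by 1.26 ± 0.24 (adjusted p = 0.0386). Fn1 is also made by fibroblasts.

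The genes whose values followed those of Clec4e most closely over the 8 samples were Acod1, Sntb1, Rsad2, Rigi and Isg15, with Pearson r from 0.999 for Acod1 to 0.998 for Isg15. Acod1, the itaconate-forming enzyme, counted 1167 and 696 normalized counts in Ctrl and 43803 and 35698 in LPS. The genes most like Clec4d were Tm4sf1 (r = 0.982), Igf2bp1, Gsr, Esd and Fth1-ps. Gsr, glutathione reductase, counted 762 and 906 normalized counts in Ctrl and 1339.8 and 1517 in Eff, against 1724 and 1437 in LPS and 2452 and 2438 in LPSEff, with the same order of groups as Clec4d apart from LPS and Eff. These correlations are descriptions, over 8 samples that fall into 4 groups and share their libraries.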

How the data were processed

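Total RNA was depleted of rRNA (RiboCop) and sequenced. As far as the sources used here state, the authors trimmed reads with cutadapt, removed rRNA with bowtie2, aligned to mm39 with STAR and counted with htseq-count at default settings, and versions are not given there. The deposited signal values are counts divided by DESeq2 size factors. In all 8 columns 100% of the values above 0 were whole multiples (within 0.05 reads) of the value of 1 read, and these recovered reads gave the depth. Floors of 3 reads cover counting error only. The 10 receptors and the gene lists were chosen with earlier results of these data known. A single listed gene is not reported here.

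Of 55359 identifiers, 54749 were named from GENCODE. limma 3.58.1 (R 4.3.3, trend on) was fitted over all 8 samples to log2(normalized count + 1). The 16309 genes that averaged 10 or more were tested, with 4 residual degrees of freedom, with Benjamini-Hochberg adjustment over all genes and a threshold of 0.05. The fit was tested on simulated data. An exact permutation test of 2 against 2 samples cannot go below p = 0.333. The labels do not say that replicates came from separate animals, so p-values measure the spread between these samples, which may be technical. Replicate numbers come from the sample names. Deviations of same-numbered samples from their group means correlated over all 6 pairs of groups (Pearson r from 0.404 to 0.595 over genes), so the number was treated as a pairing, and the fit with it as a block is given where it changes a call or count that is printed.

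Alternatives were other pseudocounts (0.5 and 5), filters, scalings and samples left out, and edgeR 4.0.16 (quasi-likelihood test, TMM) and DESeq2 1.42.0 on the recovered reads, which called 3991 and 3965 genes in LPS vs Ctrl, 3509 and 3518 in LPSEff vs Eff, 126 and 368 in LPSEff vs LPS, 14 and 207 in Eff vs Ctrl, 311 and 644 in the mean effect and 0 and 0 in the interaction. The levels per length by canonical transcript and the 6 promoter motifs were chosen after seeing the data. Genes outside the family are named if they lead their list by fold change among those called (at most 6 a list and comparison), lead another cell type's markers by level, correlate best with the receptor of largest change (5 genes each) or overlap a receptor. Tyrobp, Cxcr2, Ly6g, Retnlg, Ngp, Ltf, S100a9, Mpo, Camp, Kmo, Arg1 and Sf3b3 were added after their values were seen.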

Additional observations from a re-analysis of the deposited data

How the results depend on the processing

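Receptor fold changes called neither with nor without the block were left out of the next counts, and some of them changed sign. Clec4n in LPSEff vs Eff was at 0.34, and at -0.58 with quantile normalization. Clec12a in LPS vs Ctrl was at 0.38, and at -0.03 in its lowest setting. Of 21 receptor fold changes called with or without the block, 0 reversed under any setting. Of their 245 values under settings other than leaving out a sample, 197 kept their side of the threshold, 9 lost and 39 gained significance, and of 168 values without 1 sample the counts were 131, 32 and 5. With 1 sample left out, the lone sample of its group is assumed to vary like the other groups. Receptors called in LPS vs Ctrl numbered 4, 2 with only the groups compared in the fit, 7 with edgeR and the replicate block, and 1 (without Ctrl replicate 1) to 5 with a sample left out. In LPSEff vs Eff they numbered 4, 7 with the block, 7 with edgeR and the block, and 1 (without Eff replicate 1 or LPSEff replicate 1) to 5 with a sample left out. In Eff vs Ctrl they numbered 1, 0 with only the groups compared, 2 with the block, 0 with edgeR, 2 with edgeR and the block, 2 with DESeq2, 3 with DESeq2 and the block, and 0 to 0 with a sample left out. In LPSEff vs LPS they numbered 0, 3 with the block, 3 with edgeR and the block, 2 with DESeq2, 4 with DESeq2 and the block, and 0 to 0 with a sample left out. In the mean efferocytosis effect they numbered 2, and 0 (without LPSEff replicate 2) to 2 with a sample left out. Clec4n was called in the mean effect in addition with the block, with edgeR and the block, with DESeq2, and with DESeq2 and the block. In the interaction the receptors called numbered 0 in every setting. Fits of only the groups compared do not exist for the last pair, which use all groups. Beyond the values given beside the results, the replicate block changed no other call of a receptor.

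Over all genes, the block called 6717 genes in LPS vs Ctrl (3910 without it), 6033 in LPSEff vs Eff (3213), 436 in Eff vs Ctrl (41), 1137 in LPSEff vs LPS (126) and 1845 in the mean effect (313). Of the calls in LPS vs Ctrl, 2015 were higher and 1895 lower, against 1420 and 4315 with equal totals. In LPSEff vs Eff the split was 1753 and 1460, against 1216 and 4362. The cause of these differences was not tested.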
